A study of Mus musculus with 22 samples.

Results

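Mouse embryonic fibroblasts (MEFs, primary connective tissue cells grown from whole embryos) in which a mutant oncogene had been switched on were compared with MEFs in which the gene of the transcription factor Wt1 had been deleted. The comparison used 9 of the 22 arrays of the series, chosen by their labels: the 5 oncogene arrays (replicates 1, 3, 4, 5 and 6) and 4 of the 5 Wt1-null arrays (replicates 1, 3, 4 and 5). The oncogene cells carried an allele that is silent until Cre recombinase acts on it, and the Wt1-null cells were Wt1f/f, with Wt1 alleles that Cre deletes. The series' design text states that both were infected with an adenovirus carrying Cre, and RNA was taken 7 days later, so infection with that virus is shared by the groups. The labels of Wt1-null replicates 3, 4 and 5 name the genotype and no virus. The oncogene label names no change at Wt1 and the Wt1-null label names no oncogene, so the groups differ by both changes at once, and from these 9 arrays alone their effects cannot be told apart. The remaining arrays gave points of reference: 5 control arrays of wild-type MEFs given a GFP adenovirus, and 7 double arrays of MEFs in which Cre did both. RNA was measured on Affymetrix mouse arrays, whose probe sets are groups of probes against a transcript, and 1 probe set was used for each of 18193 genes. Levels are log2 values from RMA, so a difference of 1 is a factor of 2. A difference is the oncogene mean minus the Wt1-null mean with the standard error (SE) of a limma fit, and a gene was called at a Benjamini-Hochberg adjusted p below 0.05.

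Wt1-null replicate 2 was left out because it nearly matched double replicate 2 (correlation 0.998 over all probe sets), and the result rests on that: with it kept, limma called 3 genes, Dlk1, Igfbp6 and Sema5a, with 1299 at an unadjusted p below 0.05. Wt1-null replicates 3 and 4 also nearly matched, the SD of the gap between them being 0.162 where the next closest arrays of 1 group had 0.242, and were kept as 2 arrays. For Wt1-null replicate 2 and double replicate 2 that SD was 0.152. With Wt1-null replicates 3 and 4 averaged limma called 74 genes, against 193 with both kept. The accession numbers ran in 3 sets whose meaning the labels do not give. Oncogene arrays lay 1 in the first set and 4 in the third, and the Wt1-null arrays used lay 1 in the first and 3 in the second. Xist, the RNA that silences 1 X chromosome in female cells, was high in 0 of 5 oncogene and 1 of 4 Wt1-null arrays (replicate 1, at 9.86), a difference of -1.13 between the means with an exact two-sided permutation p of 0.2698. Of the 10 fibroblast markers, 10 were above background in both groups, with a list mean of 13.64 in oncogene and 13.24 in Wt1-null arrays. Background here means 3.65 to 5.06, the levels of 3 Y-linked genes in the 9 arrays of the series high in Xist (above 8). Whether the replicates are separate embryos or cultures is not stated, so p-values measure only the spread among these arrays, which may be technical.

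Many oncogenes act through the mitogen-activated protein kinase (MAPK) cascade of growth factor signalling, which ends in phosphorylated transcription factors of the ETS and AP-1 families. Cells answer it by making feedback inhibitors such as the Sprouty proteins and dual-specificity phosphatases. Growth signalling of this kind is known to oppose the contractile programme of mesenchymal cells, in which serum response factor (SRF) and its coactivators myocardin and the myocardin-related factors bind CArG boxes beside genes of actin filaments. Wt1 is a zinc finger protein that binds DNA in kidney, gonad and mesothelium, and is required in the embryo for the mesenchymal cells of those organs.

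The Wt1 probe set could not check the deletion. It read 4.64, 4.67, 4.51, 4.55 and 4.56 in the oncogene arrays, in replicate order, and 4.72, 4.51, 4.35 and 4.42 in the Wt1-null arrays. The groups overlapped, and both lay in the background range, at the 9.22th percentile of all genes. Their difference of 0.09 ± 0.11 (SE) had an exact two-sided permutation p of 0.3016, and 5 arrays against 4 allow no p below 0.0159.

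Between the groups 193 genes were called, 1.06% of those tested, with 116 higher (0.638%) and 77 lower (0.423%) in oncogene arrays. An unadjusted p below 0.05 was reached by 1985 genes (10.9%), 1276 of them higher (7.01%) and 709 lower (3.90%). Oncogene and Wt1-null arrays did not overlap for 1172 genes (6.44%), among them 183 of the 193 called. Large changes were mostly rises: 82 called genes were higher and 50 lower by at least 1 on the log2 scale, 25 and 9 by at least 2, and 7 and 3 by at least 3. The median difference of all genes was 0.018, and 54.2% of genes were higher in the oncogene arrays. Of the called genes 6 were X-linked and 0 were Y-linked. Leaving out oncogene replicate 1, 3 or 4 left 108, 123 and 103 called genes, and leaving out Wt1-null replicate 1, 3 or 4 left 94, 68 and 75. Each of the 9 arrays could be left out in turn with 58 genes called every time (37 higher and 21 lower).

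The genes with the largest rises encode surface receptors, transporters, secreted signals and factors of mesenchymal progenitors. Slc14a1, a urea transporter, rose 35.1 times. It read 12.75, 12.56, 12.63, 11.96 and 12.28 in the oncogene arrays and 7.45, 7.72, 7.79 and 6.24 in the Wt1-null arrays, a difference of 5.13 ± 0.72 (SE; adjusted p = 0.00129). The oncogene arrays lay within 1 unit of each other and over 4 units above every Wt1-null array, and a further probe set of the gene gave 4.74 (adjusted p = 0.000705). Agtr2, the angiotensin receptor that predominates in fetal mesenchyme, read 13.30, 12.09, 11.94, 11.56 and 11.22 against 8.19, 6.90, 7.19 and 6.60, and rose by 4.80 ± 0.65 (adjusted p = 0.00093). In each group the highest Agtr2 array was replicate 1, and the gap between the groups was wider than the range within either. Bmp2, a bone morphogenetic protein, varied more among the oncogene arrays, at 10.34, 9.16, 12.43, 11.24 and 10.81, against 6.62, 6.53, 6.71 and 7.46, and rose by 3.97 ± 0.66 (adjusted p = 0.00499). Its lowest oncogene array, replicate 3, still lay above its highest Wt1-null array, replicate 5. The control mean was near the Wt1-null mean for all 3 genes, at 7.64 ± 1.90 (SD, n = 5) for Slc14a1, 7.85 ± 1.59 for Agtr2 and 6.77 ± 0.66 for Bmp2. The double means were 12.10 ± 1.0 (SD, n = 7), 12.01 ± 0.81 and 10.71 ± 1.34, near the oncogene means.

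**Figure D1:**
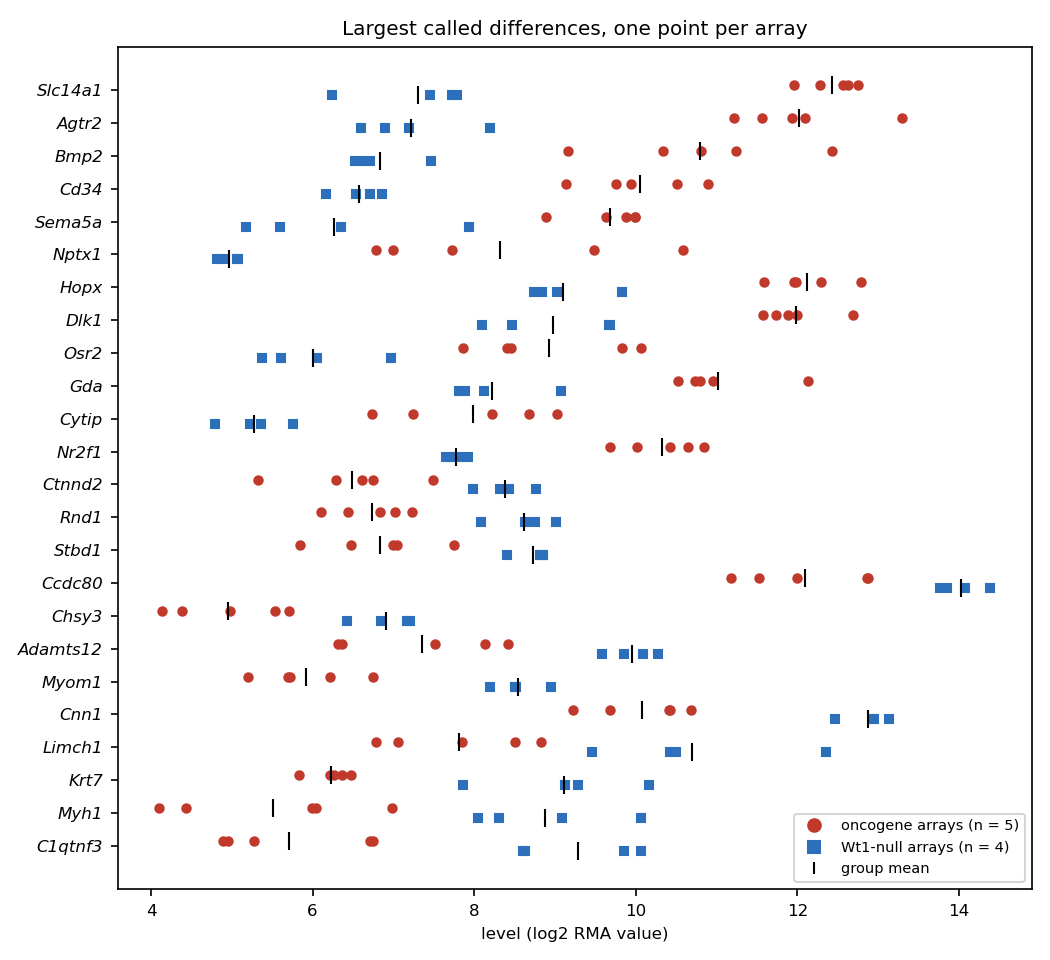
Levels (log2 RMA value) of the 12 largest rises and 12 largest falls among called genes without overlap between the groups, with 1 point per array (circles, 5 oncogene arrays; squares, 4 Wt1-null arrays) and a bar at each group mean. The oncogene points lie to the right of all Wt1-null points for the upper 12 genes and to the left for the lower 12, with the widest gap at Slc14a1 (12.43 against 7.30).

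Cd34, a sialomucin of progenitor cells and fibroblasts, was lower in all 4 Wt1-null arrays than in any oncogene array. Its oncogene arrays read 10.51, 10.90, 9.76, 9.94 and 9.14 and its Wt1-null arrays 6.16, 6.54, 6.86 and 6.71, a rise of 3.48 ± 0.39 (adjusted p = 0.000201). Dlk1, the imprinted protein that keeps preadipocytes undifferentiated, read 11.74, 12.69, 11.89, 11.58 and 11.99 against 8.47, 9.67, 9.68 and 8.10, and rose by 3.0 ± 0.36 (adjusted p = 0.000444). A further, dimmer probe set of Dlk1 gave 0.56 with no call. Sema5a, a transmembrane semaphorin, rose by 3.41 ± 0.50 (adjusted p = 0.00172), and its other probe sets above background gave 3.31 and 2.32, both called. Nr2f1, an orphan nuclear receptor of neural crest and mesenchyme, had Wt1-null arrays within 7.65 to 7.92 and oncogene arrays from 9.68 to 10.85, a rise of 2.54 ± 0.32 (adjusted p = 0.000444). Hopx, a homeodomain protein without DNA binding, rose by 3.02 ± 0.57 (adjusted p = 0.0116). Osr2, a zinc finger factor of limb and palate mesenchyme, rose by 2.92 ± 0.64 (adjusted p = 0.0315). All 3 are regulators of transcription. Gda, the guanine deaminase, rose by 2.80 ± 0.49 (adjusted p = 0.00693), with 2.60 and 2.29 from its other probe sets. Cytip, a cytohesin partner known from leukocytes, rose by 2.69 ± 0.43, and its other probe sets gave 2.48, called, and 0.21, not called. Nptx1, a secreted neuronal pentraxin, rose by 3.35 ± 0.72 (adjusted p = 0.0273) from a Wt1-null mean of 4.97 within the background range, so the size of its rise is not exact, and a further probe set gave 1.20 with no call.

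Among the largest falls were genes of striated and smooth muscle and of the matrix. Myom1, a protein of the sarcomere's M band, read 5.20, 5.70, 6.75, 5.72 and 6.22 in the oncogene arrays and 8.95, 8.50, 8.20 and 8.52 in the Wt1-null arrays, a difference of -2.62 ± 0.33 (adjusted p = 0.000444). The groups were more than 1 unit apart. Myh1, a fast skeletal myosin heavy chain, read 4.43, 4.10, 5.99, 6.04 and 6.98 against 9.09, 8.05, 8.31 and 10.06, a difference of -3.37 ± 0.71 (adjusted p = 0.0229). Other probe sets of Myh1 gave -3.28, called, and -0.09, and probes for skeletal myosin heavy chains can bind transcripts of near-identical genes, so the member is uncertain. Of the 27 skeletal and cardiac muscle genes on the list, Myh1 was the 1 called and the median was -0.04. C1qtnf3, a secreted protein of cartilage and fat, fell by 3.57 on the log2 scale (SE 0.65, adjusted p = 0.00791), from 9.29 ± 0.78 (SD, n = 4) to 5.71 ± 0.94 (SD, n = 5). Krt7, a keratin of simple epithelia, read 6.37, 6.27, 5.83, 6.21 and 6.48 against 10.16, 9.13, 9.29 and 7.86, a difference of -2.88 ± 0.52 (adjusted p = 0.00791). The spread of Krt7 lay almost wholly among the Wt1-null arrays. Its control mean of 8.87 ± 1.36 was close to the Wt1-null mean of 9.11 ± 0.95, and its double mean was 6.00 ± 0.44. Gjb2, the gap junction protein connexin 26, had a difference of -3.84 ± 0.69 (adjusted p = 0.00791), but its arrays overlapped, since oncogene replicate 5 read 9.10 and Wt1-null replicate 5 read 8.85. Krt7 and Gjb2 were the 2 calls among 21 connexins and keratins, whose median was 0.00, where 0.423% of all genes were called lower.

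The rest of the largest falls were in 6 genes of unlike roles. Ccdc80, a secreted matrix protein and one of the brightest of the set, differed by -1.93 ± 0.32 (adjusted p = 0.00476), with Wt1-null arrays from 13.77 to 14.39 and oncogene arrays from 11.18 to 12.88, and a further probe set gave -2.37. Adamts12, a secreted metalloprotease, differed by -2.60 ± 0.52 (adjusted p = 0.0165). Chsy3, a chondroitin synthase, differed by -1.96 ± 0.47 (adjusted p = 0.0473) and its oncogene mean of 4.95 lay in the background range, so its fall is not measured in full. The other 3 genes fell by similar amounts. Stbd1, which binds glycogen, differed by -1.91 ± 0.35 (adjusted p = 0.00821). Rnd1, which loosens the actin skeleton, differed by -1.90 ± 0.30 (adjusted p = 0.00409). Ctnnd2, a junctional catenin, differed by -1.88 ± 0.40 (adjusted p = 0.0234), and its other probe set gave -0.28 with no call.

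**Figure D2:**
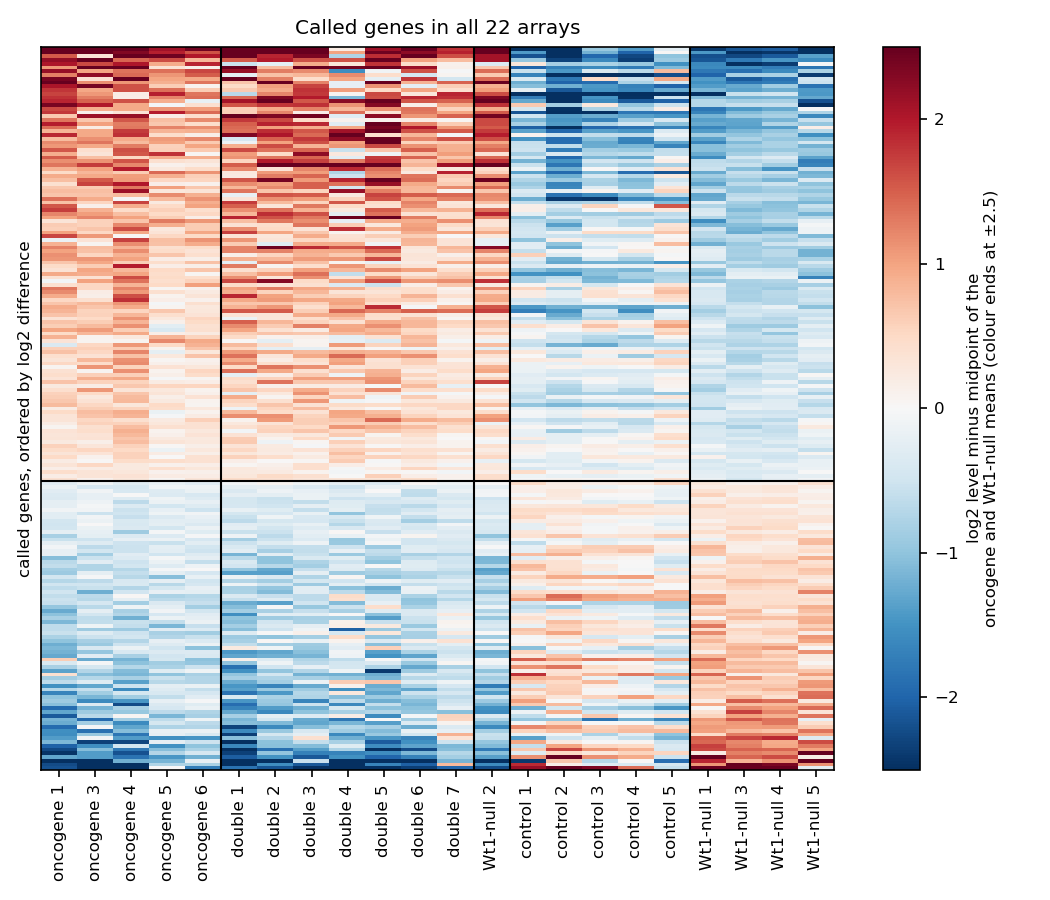
Levels of the 193 called genes (rows, ordered by the log2 difference) in all 22 arrays (columns), as the log2 level minus the midpoint of the oncogene and Wt1-null means, with the colour ending at 2.5 units. The double arrays and Wt1-null replicate 2 show the colours of the oncogene arrays, and the control arrays lie mostly on the side of the Wt1-null arrays, with paler colours among the called falls.

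Contractile genes were lower in the oncogene arrays as a list. Like the other lists here, it was chosen with earlier results of these data known, so its counts are a description and not a test. All 28 measured members were below the Wt1-null mean, with a median difference of -0.73 against 0.018 for all genes. Called falls numbered 5 of 28, where 0.423% of all genes were called lower, 22 of 28 had an unadjusted p below 0.05 in that direction, against 3.90% of all genes, and the groups did not overlap for 19 of 28, against 6.44%. Cnn1, the calponin of smooth muscle, which binds actin and slows myosin, read 9.22, 10.42, 9.68, 10.41 and 10.68 in the oncogene arrays and 13.13, 12.95, 12.94 and 12.46 in the Wt1-null arrays. Its difference was -2.79 ± 0.47 (adjusted p = 0.00499), and no oncogene array came within 1 unit of a Wt1-null array. Limch1, an activator of non-muscle myosin, read 6.79, 7.85, 7.06, 8.51 and 8.83 against 9.46, 10.50, 10.43 and 12.35, a difference of -2.88 ± 0.48 (adjusted p = 0.00499). Other probe sets of Limch1 above background gave -3.01, called, and -0.69, not called. Lmod1, a leiomodin that starts actin filaments, Myh11, the smooth muscle myosin heavy chain, and Myl9, a regulatory myosin light chain chosen after its values were seen, differed by -1.30 ± 0.28 (adjusted p = 0.0269), -1.66 ± 0.37 (adjusted p = 0.0335) and -1.43 ± 0.34 (adjusted p = 0.0476). These 3 calls were the less firm ones: with oncogene replicate 1 left out Lmod1, Myh11 and Myl9 were not called, while Cnn1 and Limch1 stayed called with each of the 9 arrays left out. With the accession set as a fixed block Limch1 was called (adjusted p = 0.0382) and Cnn1 was not (adjusted p = 0.0744).

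The members that missed the threshold lay in the same direction, and those given here were chosen after their values were seen. The list's most familiar marker, Acta2, smooth muscle actin, read 14.11 to 14.60 in oncogene and 14.90 to 14.97 in Wt1-null arrays, a difference of -0.47 (adjusted p = 0.234) near the top of the scale. Dimmer probe sets of Acta2 gave -2.54 (adjusted p = 0.0016) and -0.95 (adjusted p = 0.4), the latter not called. Tagln, the actin-binding protein transgelin, differed by -0.86 (adjusted p = 0.0676) with no overlap. Acta1 and Actg2, further muscle actins, differed by -1.94 and -1.78 (adjusted p = 0.111 each), and Ccn2, a matrix-bound growth factor driven by the same pathway, by -1.51 (adjusted p = 0.313). Genes at the small end were Cnn3 (-0.12), Flna (-0.13) and Actn4 (-0.17), which encode broadly used actin-binding proteins. The mean of the list per array was 11.44, 11.88, 11.74, 12.22 and 12.20 in the oncogene arrays and 12.75, 12.96, 12.92 and 12.73 in the Wt1-null arrays. Every oncogene array lay below every Wt1-null array, and within the first accession set the pair read 11.44 against 12.75. Control arrays averaged 12.32 and double arrays 11.76, so the controls lay between the groups. Further actin-related genes outside the list, chosen after their values were seen, were also called lower. They were Csrp1, a LIM protein of actin bundles (-1.25 ± 0.21, with -1.54 from its other probe set), Synpo2, a protein of Z discs and stress fibres (-1.23), Lims2, an adaptor at focal adhesions (-1.50), and Dstn, which cuts actin filaments (-0.61). Other probe sets of Synpo2 above background gave -0.31 and -0.45, neither called. Myocd, the SRF coactivator myocardin, also chosen so, read 5.06, 5.46, 5.41, 5.69 and 5.61 against 6.74, 8.06, 7.58 and 6.67, a difference of -1.82 ± 0.29 (adjusted p = 0.00409). Another, dimmer probe set of Myocd gave -0.03.

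**Figure D3:**
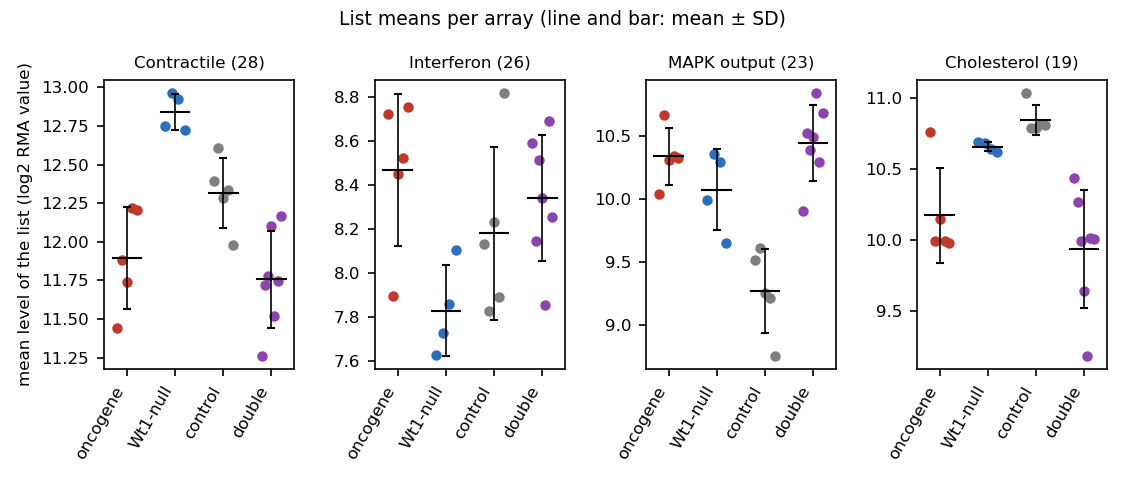
Mean level per array (log2 RMA value) of the contractile (28 genes), interferon (26), MAPK output (23) and cholesterol synthesis (19) lists, with 1 point per array, a line at the group mean and bars of 1 SD, for 5 oncogene, 4 Wt1-null, 5 control and 7 double arrays. Oncogene and Wt1-null points do not overlap for the contractile list and overlap for the other 3, and the control arrays are the lowest group for MAPK output and the highest for cholesterol synthesis.

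Because contractile genes moved together and are known targets of SRF, the promoters were searched for the CArG box on both strands of the 250 bases before each start site in RefSeq GRCm38.p6. It was found in 5 of the 61 called falls that have a promoter entry (8.20%), in 1 of 98 called rises (1.02%, Hopx) and in 207 of 14452 promoters of all tested genes (1.43%). Among the contractile genes it was found in 5 of 24 (20.8%), namely Acta1, Cnn2, Filip1l, Myl9 and Vcl, of which Myl9 was called. The 5 called falls with a match are shown as 60 bases of the plus strand around it, 5′ to 3′, with the CArG box in capitals, since these letters are what the count rests on. They come from chr2:156775278-156775337 for Myl9, chr17:71019433-71019492 for Myom1, chr5:92602990-92603049 for Stbd1, chr13:24582108-24582167 for Ripor2 and chr4:43957593-43957652 for Glipr2.
Myl9: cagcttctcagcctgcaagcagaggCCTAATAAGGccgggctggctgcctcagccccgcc
Myom1: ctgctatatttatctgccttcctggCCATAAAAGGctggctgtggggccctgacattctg
Stbd1: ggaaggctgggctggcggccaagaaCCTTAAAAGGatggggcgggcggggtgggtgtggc
Ripor2: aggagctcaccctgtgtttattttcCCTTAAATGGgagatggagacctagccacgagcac
Glipr2: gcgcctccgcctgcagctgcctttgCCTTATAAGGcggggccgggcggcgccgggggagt
The first base of the box lay 161 bases before the start site of Myl9, 99 before that of Myom1, 36 before Stbd1, 56 before Ripor2 and 84 before Glipr2. Ripor2 differed by -0.89 (adjusted p = 0.0473) and Glipr2, a Golgi-associated protein, by -0.97 (adjusted p = 0.0404), both named here for the match alone. Of the 5 genes, Myom1 and Stbd1 stayed called with each of the 9 arrays left out in turn, and Myl9, Ripor2 and Glipr2 did not. With the accession set as a fixed block only Myom1 of them was called, so the share among the called falls rests largely on less firm calls. The AP-1 site TGANTCA was in 9.18% of the called rises, 3.28% of the called falls and 6.70% of all promoters, and the ETS site CCGGAAG in 5.10%, 6.56% and 11.8%. These 2 motifs do not overlap the CArG box in their letters, a match is a description of the window only, and binding was not measured.

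Genes driven by MAPK signalling leaned higher, with few calls. Of 23 measured members 16 were higher, with a median of 0.43. Called were 2 higher, where 0.638% of all genes were, and 0 lower. At an unadjusted p below 0.05, 8 were higher and 3 lower, against 7.01% and 3.90% of all genes. The groups did not overlap for 9 of the 23, against 6.44% of all genes. Spry2, a Sprouty feedback inhibitor, read 10.60, 10.32, 10.09, 10.30 and 9.87 in the oncogene arrays and 9.31, 9.57, 9.51 and 9.08 in the Wt1-null arrays, a rise of 0.87 ± 0.12 (adjusted p = 0.0014). The groups did not overlap, and a dimmer probe set gave 0.15. Etv5, an ETS transcription factor made in response to the pathway, read 9.91, 9.72, 10.87, 9.43 and 10.09 against 8.90, 8.36, 8.12 and 8.04, a rise of 1.65 ± 0.30 (adjusted p = 0.00791), with 1.27 and 0.74 from its other probe sets, neither called. Other feedback genes, chosen after their values were seen, were not called. Dusp6, the phosphatase of ERK, differed by 1.37 ± 0.40 (adjusted p = 0.112), Spry4 by 0.91 ± 0.24 (adjusted p = 0.0731) and Spry1 by 0.08 ± 0.33 (adjusted p = 0.978). Plaur, the urokinase receptor, and Hbegf, a ligand of the EGF receptor, chosen in the same way, lay in the other direction, at -1.29 (adjusted p = 0.103) and -1.06 (adjusted p = 0.443).

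The list mean of MAPK output did not separate the groups. It read 10.04, 10.67, 10.31, 10.34 and 10.32 in the oncogene arrays and 9.99, 10.36, 10.29 and 9.65 in the Wt1-null arrays, so Wt1-null replicates 3 and 4 lay level with most oncogene arrays. Control arrays averaged 9.27 and lay below all arrays of both groups, while double arrays averaged 10.44. Some members, of which Dusp6 and Errfi1 were chosen after their values were seen, showed this order singly. Spry2 was lowest in control arrays (8.81 ± 0.10), Dusp6 read 8.35 ± 0.72 in control, 9.10 ± 0.85 in Wt1-null and 10.48 ± 0.36 in oncogene arrays, and Errfi1, the feedback inhibitor of the EGF receptor, read 10.81 ± 0.23, 12.22 ± 0.69 and 12.75 ± 0.30 in the same order. The control arrays received GFP virus, so virus and genotype cannot be told apart there. Immediate early genes, the first transcripts after a growth signal, had 0 calls among 18 and a median of -0.10. The nearest to a call were Ier5 (-0.67, adjusted p = 0.0967) and Klf6 (-1.04, adjusted p = 0.342).

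Lists of signals between cells held 0 to 2 calls each, where 1.06% of all genes were called. In the BMP list of 24, Bmp2 rose as given above and Fstl3, a secreted binder of activins, differed by -1.22 ± 0.24 (adjusted p = 0.0156), with a list median of 0.00. Both gene products act outside the cell. Of 11 secreted Wnt antagonists 8 were higher, against 54.2% of all genes, and 2 were called higher, against 0.638%. Dkk2, which blocks Wnt co-receptors, read 12.61, 12.08, 10.97, 12.02 and 12.20 against 9.73, 9.63, 9.64 and 9.52, a rise of 2.35 ± 0.54 (adjusted p = 0.0378). The Wt1-null arrays of Dkk2 were almost equal, and the lowest oncogene array, replicate 4, lay more than 1 unit above them. Frzb, a Frizzled-related decoy, rose by 1.83 ± 0.41 (adjusted p = 0.0323), with 1.93 from its other probe set. Igfbp6, a binding protein with a preference for Igf2, rose by 1.04 ± 0.14 (adjusted p = 0.00113), with Wt1-null arrays within 9.88 to 9.98 and oncogene arrays from 10.52 to 11.14, and it was the only called member among 12 genes of the insulin-like growth factor axis. Pdgfra, the receptor for platelet-derived growth factors and a fibroblast marker, read 12.94, 12.19, 12.22, 12.39 and 12.32 against 9.47 to 11.27 in the Wt1-null arrays, and rose by 2.27 ± 0.40 (adjusted p = 0.00693), with 1.66 and 1.57 from its other probe sets, both called. It was the only call among 21 receptor kinases. At an unadjusted p below 0.05, 6 receptor kinases and 5 genes of the insulin-like growth factor axis were higher, against 7.01% of all genes. In each of these lists 1 was lower, against 3.90%.

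Of 24 growth factor ligands 12 were higher and 12 lower, with a median of -0.02, and 2 were called lower, where 0.423% of all genes were. Both are fibroblast growth factors. Fgf5 differed by -2.35 ± 0.47 (adjusted p = 0.0181) and Fgf2 by -1.89 ± 0.44 (adjusted p = 0.0404). Both overlapped between the groups: for Fgf5 oncogene replicate 3 read 6.17 and Wt1-null replicate 5 read 5.93, and for Fgf2 oncogene replicate 6 read 6.52 and Wt1-null replicate 5 read 6.43. In each case the other 3 Wt1-null arrays were at least 1 unit above all oncogene arrays. The control means were also low, at 5.48 ± 0.47 for Fgf5 and 5.32 ± 0.39 for Fgf2, below the Wt1-null means of 7.43 ± 1.02 and 7.58 ± 0.79. The other probe set of Fgf5 gave -0.60 with no call. The transforming growth factor list had 0 calls among 19, and the groups did not overlap for 6 of them, against 6.44% of all genes. Tgfb3 stood at -1.34 (adjusted p = 0.0617) and the co-receptor Tgfbr3 at 1.40 (adjusted p = 0.0724), both without overlap. Regulators of G protein signalling had 0 calls among 11, and the 2 nearest lay in opposite directions, Rgs2 at 1.69 and Rgs4 at -1.89 (adjusted p = 0.102 each). A dimmer Rgs4 probe set gave -2.19 (adjusted p = 0.00865). Among 13 prostaglandin genes the prostacyclin receptor Ptgir rose by 1.51 ± 0.25 (adjusted p = 0.00469). Among 14 genes of angiotensin, urea and arginine handling, Slc14a1 and Agtr2 were the 2 called, where 0.638% of all genes were called higher. The list median was 0.18, with 12 members higher and 2 lower. For 3 of the 14 the groups did not overlap, against 6.44% of all genes.

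**Figure D4:**
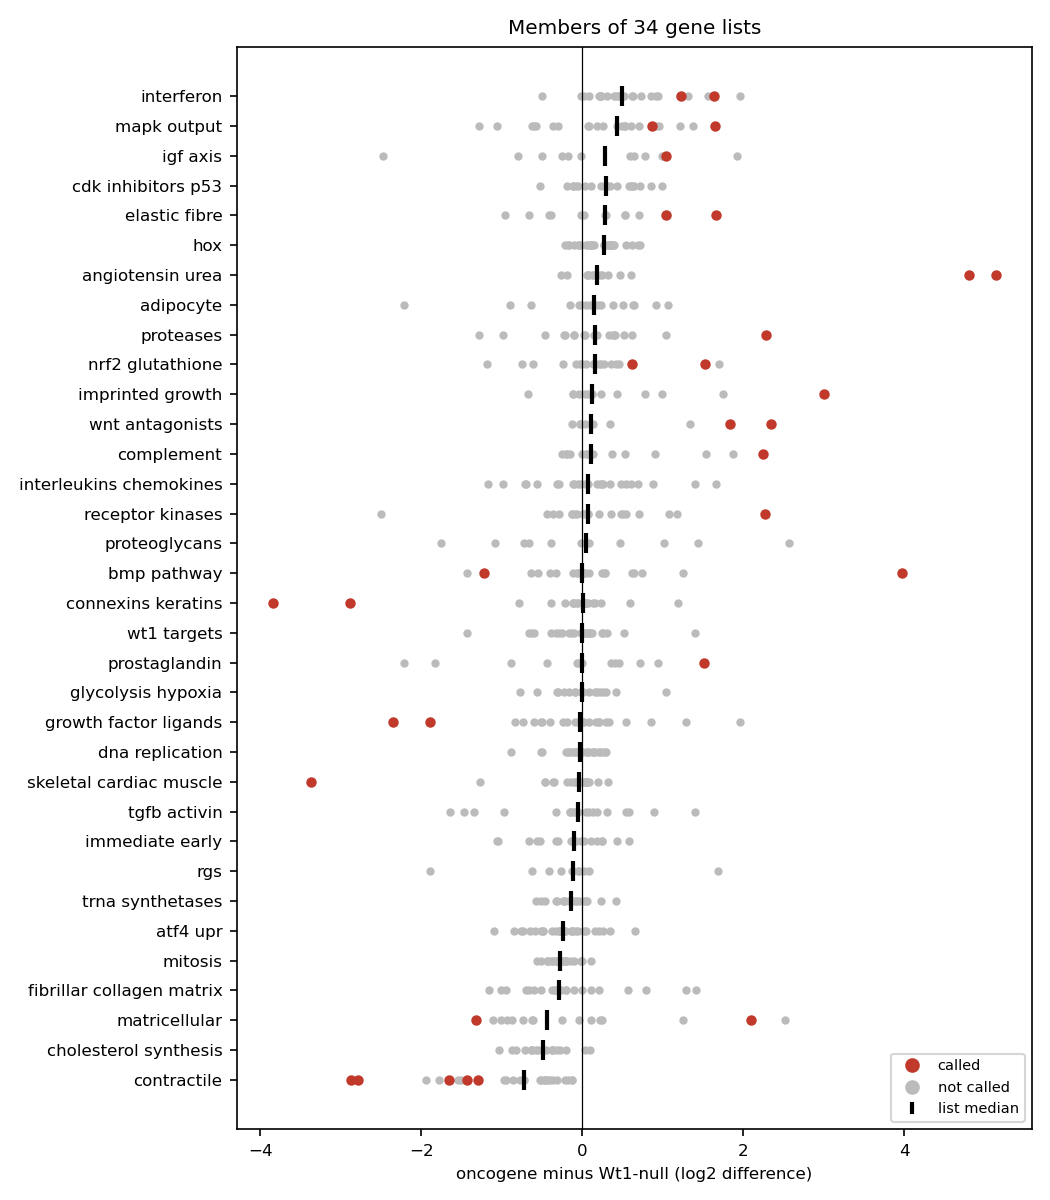
Difference of each measured member (points, oncogene minus Wt1-null, log2) of 34 gene lists, ordered by the list median (black bar), with called members in red. The contractile list is the lowest, at a median of -0.73 with every point below 0, and the interferon list is the highest, at 0.49. A called member is held by 18 of the 34 lists plotted, where 1.06% of all genes were called.

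Matrix genes were described in 5 lists, with 0 to 2 calls each. Of 22 fibrillar and basement membrane matrix genes 0 were called, with 16 lower and a median of -0.29. Their nearest members were collagens of basement membrane zones, Col18a1 at 1.41 (adjusted p = 0.189) and Col15a1 at 1.28 (adjusted p = 0.203). Among 14 elastic fibre genes 2 were called higher, against 0.638% of all genes. Efemp1, a fibulin, read 13.53, 13.11, 12.15, 12.96 and 13.30 against 10.93, 11.63, 11.59 and 11.24, a rise of 1.67 ± 0.30 (adjusted p = 0.00785) with no overlap. Ltbp4, a latent TGF-β binding protein that helps assemble elastin, rose by 1.04 ± 0.25 (adjusted p = 0.0487), with oncogene replicate 1, at 7.98, below Wt1-null replicate 5, at 8.29. Matricellular proteins, which signal from the matrix, had 1 call each way among 16: Tgfbi rose by 2.10 ± 0.46 (adjusted p = 0.0303) and Ccn4, a target of Wnt signalling, differed by -1.32 ± 0.29 (adjusted p = 0.031). Other probe sets of Tgfbi gave 1.92 and 1.77, called, and 1.89, not called. Spon2, a secreted spondin outside the lists and chosen after its values were seen, rose by 2.20 ± 0.36 (adjusted p = 0.00441). A dimmer probe set of Spon2 gave 0.27 with no call. Mmp3, the matrix protease stromelysin, read 11.98, 11.54, 11.67, 10.98 and 9.89 against 9.37, 9.22, 9.26 and 7.89, and rose by 2.28 ± 0.44 (adjusted p = 0.0136), as the only call among 20 proteases and their inhibitors. Proteoglycans had 0 calls among 13. Esm1, an endothelial proteoglycan, stood at 2.56 (adjusted p = 0.0936) and Fmod, which binds collagen fibrils, at -1.75 (adjusted p = 0.134).

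Of 26 interferon response genes 24 were higher, with a median of 0.49, the highest of the lists other than the sex-linked genes, and 12 had an unadjusted p below 0.05 in that direction, against 7.01% of all genes. Called rises numbered 2 (0.638% of all genes). Trim21, a cytosolic antibody receptor, read 9.15, 8.15, 9.03, 8.37 and 8.18 against 7.56, 7.14, 7.28 and 7.40, a rise of 1.23 ± 0.22 (adjusted p = 0.00791), and its other probe set gave 0.78, also called. Ifit3, an antiviral protein that binds foreign RNA complexes, rose by 1.63 ± 0.34 (adjusted p = 0.0236), and was not called with oncogene replicate 1 or 4, or Wt1-null replicate 1, 3 or 4, left out. Both had control means between the groups, 8.20 ± 0.37 for Trim21 and 8.72 ± 0.73 for Ifit3, nearer to the oncogene means. For the list as a whole oncogene arrays read 8.72, 7.89, 8.45, 8.52 and 8.75 and Wt1-null arrays 7.63, 7.72, 7.86 and 8.10. Oncogene replicate 3 lay at the Wt1-null level, which is the overlap between the groups. Control arrays averaged 8.18. Of members that missed the threshold, chosen after their values were seen, Oasl2 differed by 1.96 (adjusted p = 0.217), Ifit1 by 1.56 (adjusted p = 0.309) and Tap1, the peptide transporter of antigen presentation, by 1.31 (adjusted p = 0.0653), whereas the sensor Ifih1 differed by -0.01. Outside the list, and chosen after their values were seen, the immunity-related GTPase Irgm2 rose by 1.51 ± 0.32 (adjusted p = 0.0236) and Uba7, the enzyme that starts conjugation of Isg15, by 0.87 ± 0.21 (adjusted p = 0.048). Other probe sets of Uba7 gave 0.13 and 1.12, neither called.

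Other immune-related genes were single calls. Serping1, the inhibitor of the first complement component, read 11.75, 10.12, 10.32, 11.95 and 11.41 against 8.33, 8.88, 9.04 and 9.21, and rose by 2.25 ± 0.36 (adjusted p = 0.00409). It was the only call among 14 complement genes, where 0.638% of all genes were called higher. Icam1, the adhesion molecule that leukocytes bind, chosen after its values were seen, rose by 2.11 ± 0.28 (adjusted p = 0.00093), with oncogene arrays from 8.61 to 9.51 and Wt1-null arrays from 6.36 to 7.06. The list of interleukins and chemokines had 0 calls among 25 and a median of 0.07. In it Il33, an alarmin, stood at 1.66 (adjusted p = 0.228) over a Wt1-null mean in the background range, and Csf3 at -0.31 (adjusted p = 0.351).

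Metabolic and stress lists held small shifts with few calls. Cholesterol synthesis genes were lower at 17 of 19 members, with a median of -0.49 and 7 at an unadjusted p below 0.05 (3.90% of all genes), but 0 were called. The list mean was 10.76 in oncogene replicate 1 and 9.98 to 10.14 in the other 4, against 10.62 to 10.69 in the Wt1-null arrays, so the first-set pair (10.76 against 10.69) did not show the difference. Msmo1 and Cyp51, enzymes that remove methyl groups from sterols, differed by -0.87 (adjusted p = 0.208) and -0.82 (adjusted p = 0.26). Abca1, which exports cholesterol, was chosen after its values were seen and rose by 2.06 ± 0.43 (adjusted p = 0.0229), though its dimmer probe sets gave 0.79 and 0.57 with no call. Genes of the ATF4 and unfolded protein responses were lower at 25 of 32, with a median of -0.24 and 0 calls, and Wt1-null replicate 1 had a list mean of 10.70 against 9.77 to 10.10 in the other 3. Mthfd2, a mitochondrial folate enzyme, and Slc7a5, an amino acid transporter, differed by -0.85 and -0.74 (adjusted p = 0.191 each). The pseudokinase Trib3, chosen after its values were seen, differed by -0.76 ± 0.39 (adjusted p = 0.516), with both groups far below the control mean of 10.82 ± 0.26. Transfer RNA synthetases had 0 calls among 19, a median of -0.14, and Eprs (-0.46, adjusted p = 0.217) and Nars (-0.51, adjusted p = 0.351) as nearest members. Glycolysis and hypoxia genes had 0 calls among 19 and a median of -0.01, with Ankrd37 at -0.56 (adjusted p = 0.182) and Ndrg1 at 1.04 (adjusted p = 0.216).

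Called rises among NRF2 and glutathione genes numbered 2 of 20, against 0.638% of all genes. Gsta4, a glutathione transferase for lipid aldehydes, rose by 1.52 ± 0.30 (adjusted p = 0.0164), and Fth1, the ferritin heavy chain that stores iron, by 0.62 ± 0.15 (adjusted p = 0.0484) with Wt1-null replicate 1 level with the lowest oncogene arrays. The list median was 0.15. Further called genes outside the lists were chosen after their values were seen. Npc2, which carries cholesterol out of lysosomes, had oncogene arrays from 13.87 to 14.12 and Wt1-null arrays from 13.31 to 13.55, a rise of 0.53 ± 0.10 (adjusted p = 0.0137). Tpp1, a lysosomal peptidase, rose by 0.81 ± 0.20 (adjusted p = 0.0491) and Gpnmb, a glycoprotein of lysosomes and melanosomes, by 2.13 ± 0.36 (adjusted p = 0.00499). Bbs2, a subunit of a coat complex of the primary cilium, rose by 1.0 ± 0.22, Wdr19, of transport inside the cilium, by 1.06 ± 0.21, and Dync2li1, of a ciliary dynein motor, by 1.11 ± 0.23. A dimmer probe set of Wdr19 gave 0.34 with no call. How many other genes of lysosomes or cilia moved was not counted. Rbpj, also chosen in this way, the DNA-binding factor of Notch signalling, rose by 1.34 ± 0.19 (adjusted p = 0.0014) and its other probe sets gave 1.14 and 1.21, both called, while Hey2, chosen likewise, a repressor induced by Notch, differed by -1.48 ± 0.26 (adjusted p = 0.00693) with oncogene arrays at 4.56 to 4.89, in the background range.

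Proliferation genes were not separated. Mitosis genes were lower at 26 of 27 members with a median of -0.27, yet limma called 0 of them and an unadjusted p below 0.05 was reached by 0. The list means ranged from 9.81 to 11.07 in oncogene arrays and from 9.96 to 11.21 in Wt1-null arrays, so arrays within each group differed by more than the groups. The lowest Wt1-null array was replicate 1, the one high in Xist, and its nearest array in the whole series was control replicate 2. Aurka, a mitotic kinase, and Tpx2, its activator, differed by -0.52 (adjusted p = 0.643) and -0.43 (adjusted p = 0.688). DNA replication genes had a median of -0.03 with 0 calls among 29, and their nearest members were Rrm1, a subunit of ribonucleotide reductase, at -0.50 (adjusted p = 0.662), and E2f2 at 0.25 (adjusted p = 0.411). Cyclin-dependent kinase inhibitors and p53 targets had 0 calls among 22 and a median of 0.29, with Rbl2, a pocket protein, at 0.64 (adjusted p = 0.223) and Sesn1, a stress sensor, at 0.60 (adjusted p = 0.411).

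Reported targets of Wt1 did not move as a list, with 14 of 27 higher, a median of 0.00 and 0 calls. The 2 with the smallest p were Scel, whose levels of 4.60 to 5.32 lay at or near background, at -0.39 (adjusted p = 0.0551), and Gas1, a growth arrest protein and Hedgehog co-receptor, at 1.40 (adjusted p = 0.114). Homeobox genes of the Hox clusters, whose levels mark position along the embryo, were higher at 24 of 31 with a median of 0.26 and 0 calls, and Hoxd8 and Hoxd9 stood at 0.62 (adjusted p = 0.252) and 0.36 (adjusted p = 0.402). Adipocyte genes had 0 calls among 18, with Cebpa, a factor of fat cell differentiation, at 0.91 (adjusted p = 0.132) and Mgll, a lipase, at -2.21 (adjusted p = 0.246). In the list of imprinted growth genes Dlk1 was the 1 call among 14, where 0.638% of all genes were called higher. Among the 4 sex-linked genes 0 were called, with a median of 0.59. Of the 42 lists, 19 held a called member, where 1.06% of all genes were called. The lists differ in size, and how many would hold a call at that share was not worked out.

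Markers of other cell types had list means below those of the fibroblast markers in both groups, and no list of them held a call. Above background in both groups were 7 of 10 epithelial, 6 of 10 endothelial, 8 of 10 leukocyte, 7 of 9 neural, 6 of 8 cartilage and bone, and 4 of 6 red cell markers. Their list means ranged over arrays from 5.98 to 6.52 in oncogene and 6.08 to 6.25 in Wt1-null arrays for epithelium, from 5.53 to 5.84 and 5.68 to 5.71 for endothelium, and from 5.91 to 6.25 and 5.93 to 6.03 for leukocytes. For those 3 lists the groups overlapped. The neural list read 7.31 to 7.59 in oncogene and 6.97 to 7.30 in Wt1-null arrays, and the cartilage and bone list 6.33 to 6.89 and 6.91 to 7.32, without overlap in either. The gaps were narrow, and the median difference was -0.01 for the neural list (4 members higher, 5 lower). For the cartilage and bone list it was -0.11 (2 higher, 6 lower). Red cell markers read 5.24 to 5.56 and 5.31 to 5.40. In the cartilage list Col2a1, the collagen of cartilage, stood at -1.46 (adjusted p = 0.209) and Acan, its proteoglycan, at -0.93 (adjusted p = 0.129), beside the fall of C1qtnf3, and in the neural list Stmn2 stood at 1.47 (adjusted p = 0.619). In such bulk samples fewer cells of a type and less RNA per cell cannot be told apart, and the part of other cell types in these results was not tested.

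The control and double arrays, which did not enter the contrast, place the called genes. For each called gene the double mean was nearer to the oncogene than to the Wt1-null mean, for 116 of 116 rises and 77 of 77 falls, against 71.0% of all genes. Among single double arrays the share ran from 79.3% in replicate 4 to 98.3% in replicate 3 for the rises, and from 83.1% to 97.4% for the falls. The control mean was nearer to the Wt1-null mean for 94 of 116 rises and 54 of 77 falls, where over all genes it was nearer to the oncogene mean for 50.4%. With 0 for the Wt1-null mean and 1 for the oncogene mean, the median position of the control mean was 0.12 for the rises and 0.39 for the falls, and that of the double mean was 1.04 and 1.06. Controls thus lay close to the Wt1-null arrays for the rises and nearer the middle for the falls. Control replicate 5 stood apart from the other controls, with 51 of 116 rises and 49 of 77 falls nearer to the oncogene mean. Myom1 shows the middle case, at 7.44 ± 0.66 in control against 5.92 in oncogene and 8.54 in Wt1-null arrays, and Cd34 the other, at 6.68 ± 0.70 against 10.05 and 6.57. All 7 double arrays, 4 of the 5 oncogene arrays and 4 of the 5 control arrays came from the third accession set. From those 4 control arrays alone the control mean was nearer to the Wt1-null mean for 91 rises and 46 falls. The part of the accession set in these positions was not tested. The left-out Wt1-null replicate 2 was nearer to the oncogene mean for 107 of 116 rises and 74 of 77 falls, and for example read 12.57 for Slc14a1 and 13.51 for Agtr2.

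The accession sets overlap the oncogene and Wt1-null groups in 1 place only, the first set, with oncogene replicate 1 and Wt1-null replicate 1. With the set as a fixed block 26 genes were called, 18 higher and 8 lower, of which 22 were among the 193. With both arrays of the first set left out, 44 genes were called, 27 higher and 17 lower. The held-out pair differed in the same direction for 44 of these 44, against 53% of all genes. Its median difference was 1.58 over the 27 rises, which had a median of 1.55 in the fit, and -1.06 over the 17 falls, which had -1.38. For Slc14a1 the pair differed by 5.30 and for Agtr2 by 5.11. With the fixed block, however, Slc14a1 was no longer called (3.80, adjusted p = 0.164), nor was Bmp2 (3.78, adjusted p = 0.164), whereas Agtr2 was (5.18, adjusted p = 0.0275). Of the 24 largest rises and falls 8 were called with that block. Among the oncogene and Wt1-null arrays used, the accession set and the group cannot be told apart outside the first-set pair. Control arrays lay 1 in the second set, beside Wt1-null arrays, and 4 in the third, beside oncogene arrays. They entered the fixed-block fit, so its estimate of the set rests on them as well as on that pair. In the second set this rests on 1 control array.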

How the data were processed

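The values are log2 levels that the authors made by RMA in Affymetrix Expression Console, per the submitters' processing notes; the version is not given in the sources used here. RMA subtracts background, gives all arrays a common distribution and summarises probes, so it compresses differences near the floor and can hide a shift shared by most transcripts. They lay between 3.29 and 15.14, with array medians of 6.23 to 6.33, and precision is limited by how many arrays there are. The oncogene's name is not reported here, and 5 of the 6 oncogene samples that the design text counts were used.

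Of 45101 probe sets, 64 were controls, 34945 were annotated with 1 gene, 932 with several and 9160 were not listed. Of those with 1 gene, 34754 matched RefSeq GRCm38.p6 and kept their symbols. For each of 18193 genes the probe set of highest mean was used. Other probe sets of a gene are quoted from a fit of every probe set with 1 gene.

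Group means were fitted with limma 3.58.1 in R 4.3.3 (lmFit, eBayes) on 21 arrays, without Wt1-null replicate 2, so that 4 groups shared 1 estimate of the spread; figures and tables used Python 3.11.15. P-values were adjusted by Benjamini-Hochberg over genes. The 42 lists (814 names, 760 measured) were described by counts and medians, with no test. Named genes were the 12 largest rises and 12 largest falls among called genes without overlap, clone names left out, up to 4 called members of smallest p per list, the 2 of smallest p where a list had no call, and Wt1 and Xist; others are said to be chosen after their values were seen. Members, lists and rules were chosen with earlier results of these data known. Alternatives covered probe sets, dim genes, normalization, variance, array weights, arrays in the fit, blocks, Xist and each left-out array; leaving out both arrays of the first accession set was chosen after seeing the data. On simulated data for this comparison (18193 genes, 100 changed per size), a log2 change of 1 was recovered for 65% and of 2 for 95%, with 8 false calls. The simulated arrays were independent, with no accession set effect and no near-identical arrays. The simulation therefore checks the fit only, and these shares and false calls need not hold for the real arrays.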

Additional observations from a re-analysis of the deposited data

Results flagged for a closer look

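In 19 of 188 groups of 4 or 5 arrays checked for named genes, 1 array lay farther from the rest than Dixon's 95% limit allows, where chance gives about 1 in 20. Wt1-null replicate 5 was such an array 6 times and Wt1-null replicate 1 5 times.

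Wt1-null replicate 5 was the lowest of its group for Gjb2 (8.85, the others 11.65 to 11.80), Mmp3 (7.89, the others 9.22 to 9.37), Stbd1 (8.41, the others 8.82 to 8.85), Ptgir (5.48, the others 5.90 to 5.97) and Ankrd37 (5.39, the others 5.82 to 5.90), and the highest for Sesn1 (9.11, the others 8.60 to 8.65). Wt1-null replicate 1 was the highest for Xist (9.86, the others 5.87 to 6.46) and the lowest for the Y-linked Kdm5d (3.95, the others 7.45 to 7.87). It was also the lowest for the proliferation genes Aurka (10.16, the others 11.00 to 11.17), Tpx2 (10.64, the others 11.48 to 11.53) and Rrm1 (11.73, the others 12.51 to 12.64). Wt1-null replicate 4 was the lowest for Scel (5.14, the others 5.29 to 5.32). In most of these groups replicates 3 and 4, the near-identical arrays, were 2 of the 3 that lay together.

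Among the oncogene arrays, replicate 1 was the highest for Gda (12.13, the others 10.52 to 10.95), Pdgfra (12.94, the others 12.19 to 12.39) and Msmo1 (12.08, the others 10.77 to 11.10). Replicate 3 was the highest for Fgf5 (6.17, the others 4.72 to 4.86) and the lowest for Gas1 (12.70, the others 13.52 to 13.74). Replicate 5 was the lowest for Igfbp6 (10.52, the others 11.03 to 11.14), and replicate 4 the highest for Alas2 (6.08, the others 5.35 to 5.54).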

How the results depend on the processing

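The count of called genes, 193, moved to 320 with every probe set, 2029 with array weights, 85 with the accession set as a random block, 26 with it as a fixed block, 74 with Wt1-null replicates 3 and 4 averaged (all 74 among the 193), 3 with Wt1-null replicate 2 kept and 44 without both arrays of the first accession set. Leaving out 1 array at a time gave 68 (without Wt1-null replicate 3) to 214 (without oncogene replicate 5). The remaining alternatives, other than a replicate block on shared numbers only, gave 132 (a log2 limit of 1) to 244. The share of higher calls, 60.1%, was 49.3% with the mean of all probe sets, 47.8% with every probe set and 52.1% with median-centred arrays. The 73 named called genes kept their direction in all 1894 values under 26 alternatives. They were picked among called genes and the alternatives refit mostly the same arrays, so a reversal was unlikely from the start. Of the 73, 70 were not called with Wt1-null replicate 2 kept, 61 with the fixed block and 50 without the first set. Beside that kept array, 9 genes stayed called in every alternative: Agtr2, Aox1, Cd34, Dlk1, Lhfpl2, Mgst1, Mid2, Msrb1 and Nr2f1. The cause of these changes was not tested. The replicate number as a block gave 244 called genes, and 56 with shared numbers only. The deviations of same-numbered arrays correlated at 0.264, 0.321, -0.168 and 0.408 (replicates 1, 3, 4 and 5), and oncogene replicate 4 correlated best with Wt1-null replicate 1 (0.280), so, with 1 pair negative, the numbers were not taken to pair the arrays, and whether they do was not settled. Genes near background have differences that the array understates.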
